A study of Mus musculus with 16 samples.

Results

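The genes described here are 35 enzymes, carriers and membrane proteins of fatty acid oxidation and of peroxisomes, read in bulk RNA from mouse kidney. They are a list of symbols for the pathway, drawn up with earlier results of these data known, so their counts below are not those of an unselected list. By role the 35 genes were grouped into 20 of mitochondrial fatty acid oxidation, 11 in or on peroxisomes and 3 that activate medium-chain fatty acids. Acat1, of ketone metabolism, stands outside the 20 though its enzyme is mitochondrial, so the 20 are not all the mitochondrial enzymes listed. All 35 were found among the 40472 genes of the deposited count table, and all 35 were among the 13614 genes kept for testing after removal of genes with low counts.

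Kidneys came from male C57BL/6 mice aged 12 weeks, in 4 groups of 4 libraries. Uninjured controls received vehicle (NV) or PJ34 (NP), a small molecule that inhibits poly(ADP-ribose) polymerases. The other groups underwent ischemia reperfusion, an interruption and return of the renal blood supply, with vehicle (IRV) or with PJ34 (IRP). Per the series' design text the question was the long-term effect of the inhibitor, and the sources used here do not give the day of collection. The labels number the libraries without saying that each is a separate animal. The p-values therefore weigh group differences against the spread of these libraries, which may not be the spread between animals.

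The kidney proximal tubule draws most of its energy from fatty acids. A long-chain fatty acid is joined to coenzyme A, carried into mitochondria as a carnitine ester and shortened in repeated turns of dehydrogenation, hydration, oxidation and thiolysis, while electron transfer flavoprotein hands the electrons to the respiratory chain. Peroxisomes shorten very-long-chain and branched fatty acids with their own set of enzymes. Many of these genes respond to the nuclear receptor PPARA and its coactivator PPARGC1A.

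The total count of a library was between 973812 (IRV replicate 1) and 6169748 (IRV replicate 4). All IRP libraries and IRV replicates 3 and 4 were deep, with more than 3000000 counts, and the other 10 libraries were shallow. The shallow libraries carried 5095 to 9989 CPM (counts scaled to a common library total) of genes of the olfactory, vomeronasal and related receptor families, against 330 to 634 CPM in the deep ones. Depth therefore ran through the IRV group and separated every IRP from every NP library. Proximal tubule markers summed to 25385 to 26513 CPM in NV, 23821 to 31817 in NP, 12120 to 17281 in IRV and 11835 to 23551 in IRP over 20 genes, none of which was at 0 in every library. Of these 20 markers 18 fell in IRV against NV and 16 in IRP against NP under trimmed-mean (TMM) scaling of the libraries. Scaling by library totals gave 5 lower and 1 higher, then 4 lower and 1 higher. Fold changes under library totals, here and below, use the totals of the 13614 genes kept for testing. Macrophage markers summed to 120.5 to 190 CPM in NV and 1110 to 2002 CPM in IRV, and all 12 rose in both comparisons.

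A large share of the 35 genes was lower after ischemia reperfusion, with and without PJ34, under TMM scaling of the libraries; under scaling by library totals this held only relative to the median of all genes, as given further on. In IRV against NV 20 of 35 fell and none rose, and all 35 log2 fold changes were negative, with a median of -0.58 and a range of -1.16 to -0.08. Over all genes tested 27% passed the threshold of an adjusted p of 0.05 (edgeR's quasi-likelihood test with Benjamini-Hochberg adjustment), 11.1% as lower, and the median was -0.03. In IRP against NP 18 of 35 fell and none rose, 32 values were negative, and the median was -0.41 with a range of -1.07 to 0.14. Over all genes 43.6% passed in that comparison, 24% as lower, with a median of -0.01. The members fell in both comparisons for 16 genes, in IRV against NV alone for 4, in IRP against NP alone for 2 and in neither for 13. In whole-kidney RNA, fewer cells of a type and less RNA per cell cannot be told apart, and the part of the falling proximal tubule markers in these values was not tested.

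These directions are relative to the scaling of the libraries by trimmed means (TMM). Scaling by library totals alone moved the median of all genes to 0.49 in IRV against NV and to 0.57 in IRP against NP, and the members' medians to -0.07 and 0.16. Relative to the median of all genes the members then lay at -0.56 and -0.41, close to the -0.55 and -0.40 under TMM, and 35 and 32 of 35 members lay below it under both scalings. Only 2 members passed as lower in IRV against NV under library totals, and in IRP against NP 6 passed as higher and 1 as lower. The median of all genes had moved up as well, so these counts do not compare directly with those under TMM. Without any filter on low counts the pattern relative to all genes was lost. Then 15 of 35 members lay below the median of all genes in IRV against NV and 0 of 35 in IRP against NP. The median of all genes had itself moved, to -0.32 and -1.08. The members' medians were -0.28 and 0.025, with 27 and 16 of 35 values negative. That setting tested 40472 genes.

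Adding the library set to the model changed the calls of IRP against NP more than those of IRV against NV. With the library set (deep or shallow) as a covariate, 19 members fell in IRV against NV, where 6.13% of all genes passed as lower, and 17 of them were among the 20. Acadvl, Abcd3 and Echs1 no longer passed, and Acaa1a and Amacr did. In IRP against NP 1 member, Phyh, still passed, where 0.786% of all genes passed as lower, while 33 of 35 values were negative with a median of -0.56. IRP and NP share no library set, so that fit separates the set from injury only through IRV. Depth cannot be told apart there from the other differences between the sets. The library-set term itself had a median of 0.09 over the members and a range of -0.45 to 0.42. It rests on the deep against the shallow IRV libraries alone.

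**Figure D1:**
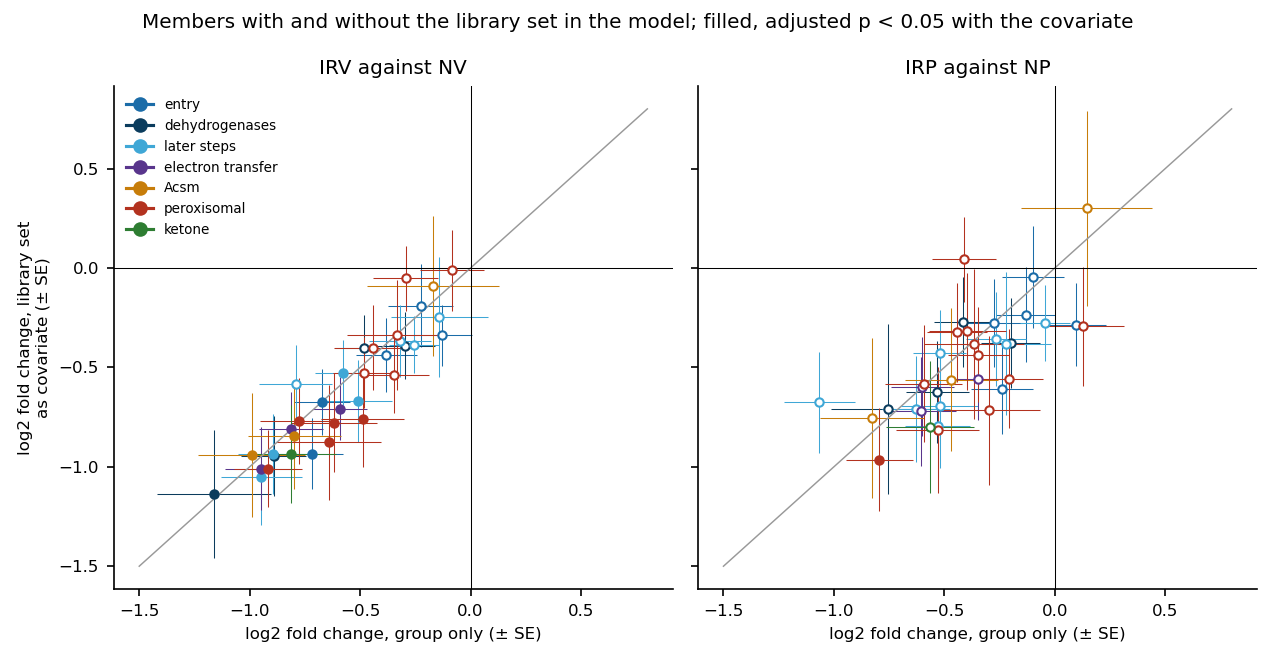
Log2 fold change of each of the 35 members with the group as the only term (horizontal axis) and after adding the library set as covariate (vertical axis), with standard errors, for IRV against NV and IRP against NP. Error bars are wider on the vertical axis, several members lie well off the diagonal on the right (Eci2 goes from -0.41 to 0.04 and Acaa1a from 0.13 to -0.29), and filled points, past an adjusted p of 0.05 with the covariate, number 19 on the left and 1 on the right.

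**Figure D2:**
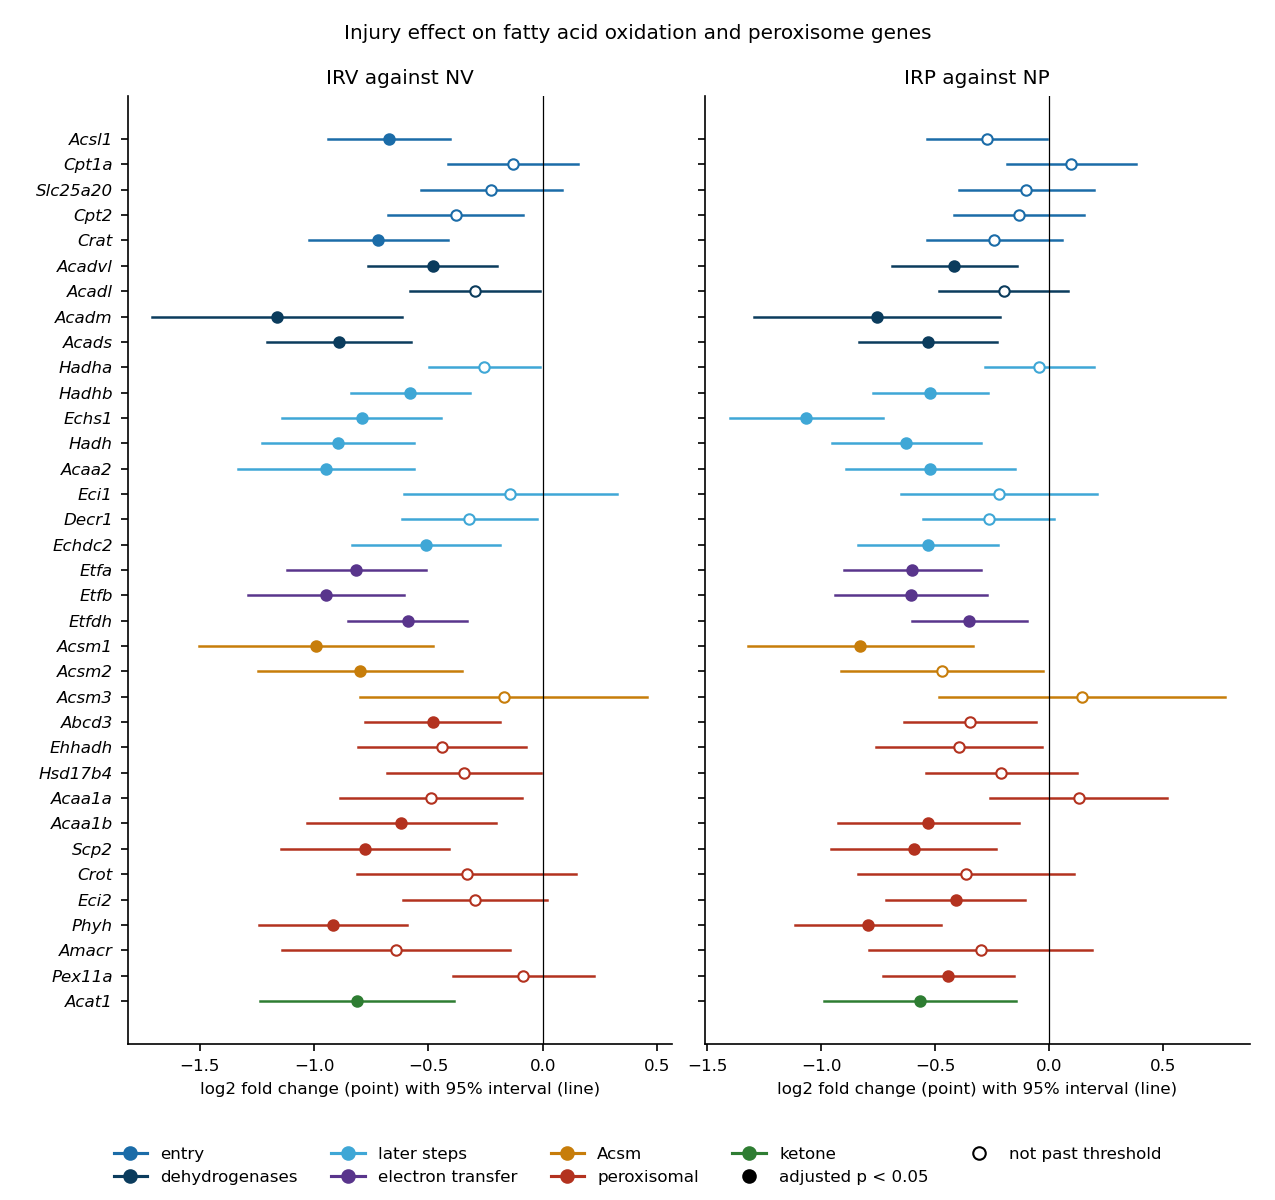
Log2 fold change of the 35 members with 95% intervals, coloured by role, in IRV against NV (left, 20 filled points past an adjusted p of 0.05) and IRP against NP (right, 18 filled points), under TMM scaling. All points lie below 0 on the left and 32 on the right, and under library totals alone 18 and 9 of 35 values are negative.

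Promoter sequences were examined for 29 of the 35 genes, which have 32 promoters of 300 bases (250 before the start site to 50 after) in the RefSeq table of build GRCm38.p6. Crat, Hsd17b4, Amacr, Decr1, Acaa2 and Acat1 are named only. The nuclear receptor element AGGTCANAGGTCA, the direct repeat to which PPARA binds with its partner RXR, was sought on both strands with up to 2 of its 12 fixed letters mismatched. It occurred in 3 of 32 member promoters (9.38%) and in 1268 of 32851 promoters in the table (3.86%). Those 3 are printed below in the direction of the gene, because their genes behaved differently: Echs1 and Etfa fell in both comparisons and Slc25a20 in neither. Capitals mark all 13 bases of the element's position, mismatched letters included. The Etfa match is on the opposite strand, and its first base, like that of the others, is counted from the start site: -83 for Echs1, -77 for Etfa and 6 for Slc25a20. A match describes the letters and not a bound site.
Echs1, chr7:140116372-140116671, minus strand: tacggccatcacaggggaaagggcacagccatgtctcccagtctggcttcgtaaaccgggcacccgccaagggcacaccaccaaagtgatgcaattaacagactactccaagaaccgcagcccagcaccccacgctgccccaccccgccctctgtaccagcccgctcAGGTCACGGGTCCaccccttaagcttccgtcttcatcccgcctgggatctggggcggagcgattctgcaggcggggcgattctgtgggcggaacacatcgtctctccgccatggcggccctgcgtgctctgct
Etfa, chr9:55512194-55512493, minus strand: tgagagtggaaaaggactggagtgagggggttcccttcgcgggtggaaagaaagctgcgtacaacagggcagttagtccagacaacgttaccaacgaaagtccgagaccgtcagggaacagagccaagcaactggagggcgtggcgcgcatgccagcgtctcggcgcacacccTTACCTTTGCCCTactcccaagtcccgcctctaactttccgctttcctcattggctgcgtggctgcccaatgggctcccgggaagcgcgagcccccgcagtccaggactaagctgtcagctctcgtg
Slc25a20, chr9:108661886-108662185, plus strand: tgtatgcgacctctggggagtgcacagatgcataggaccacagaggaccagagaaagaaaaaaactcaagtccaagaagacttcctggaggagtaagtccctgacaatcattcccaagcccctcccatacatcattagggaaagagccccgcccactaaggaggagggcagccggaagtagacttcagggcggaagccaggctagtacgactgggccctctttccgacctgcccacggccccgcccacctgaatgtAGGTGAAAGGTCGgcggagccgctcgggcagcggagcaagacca

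Hadha and Hadhb, which encode the alpha and beta subunits of the mitochondrial trifunctional protein, stand head to head with no protein-coding gene between them. Their promoter windows overlap by 228 bases on chromosome 5, from 30155003 to 30155230. The window of Hadhb is shown because its 2 genes share these bases and yet gave different calls, as described further on. Capitals mark the shared bases.
Hadhb, chr5:30155003-30155302, plus strand: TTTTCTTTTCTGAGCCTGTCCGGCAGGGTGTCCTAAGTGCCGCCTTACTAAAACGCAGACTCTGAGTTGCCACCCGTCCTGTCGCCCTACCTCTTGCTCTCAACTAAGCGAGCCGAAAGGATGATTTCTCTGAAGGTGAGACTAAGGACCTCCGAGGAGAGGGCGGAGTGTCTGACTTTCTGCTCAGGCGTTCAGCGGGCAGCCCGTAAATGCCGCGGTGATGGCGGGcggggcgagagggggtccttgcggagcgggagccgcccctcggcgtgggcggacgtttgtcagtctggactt

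Member promoters had a median GC content of 58.4%, against 52.7% over all promoters, and a median ratio of observed to expected CpG of 0.575 against 0.384. The promoters of the 3 Acsm genes had a median CpG ratio of 0.178. The motif TATAAA, on the strand of the gene with its first base 40 to 20 bases before the start, occurred in 1 of 32 member promoters and in 1.99% of all. That promoter, 1 of 2 listed for Acsm2, is shown because it is the only member promoter with this motif, and its capitals mark the match, which begins at -28.
Acsm2, chr7:119554090-119554389, plus strand: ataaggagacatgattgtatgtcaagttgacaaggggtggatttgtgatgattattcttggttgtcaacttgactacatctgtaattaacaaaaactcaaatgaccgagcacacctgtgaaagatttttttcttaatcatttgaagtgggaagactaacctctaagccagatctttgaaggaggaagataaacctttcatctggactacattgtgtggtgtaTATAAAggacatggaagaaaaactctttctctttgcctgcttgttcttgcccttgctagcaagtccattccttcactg

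Of the 5 genes for the entry of fatty acids into mitochondria Acsl1 and Crat fell in IRV against NV, and none passed in IRP against NP. Counts by role, here and below, stand against 11.1% of all genes lower in IRV against NV and 24% in IRP against NP. Acsl1, which joins coenzyme A to long-chain fatty acids, was at 219, 178, 194 and 203 CPM in NV replicates 1 to 4 and at 133, 117, 109.6 and 139.5 CPM in IRV. It was at 208, 179, 167 and 209 CPM in NP and at 165, 143, 135 and 188 CPM in IRP. All IRV libraries lay below all NV libraries, and the IRP and NP ranges overlapped. The log2 fold change of Acsl1 was -0.67 ± 0.13 (adjusted p = 0.00104) in IRV against NV and -0.27 ± 0.12 (adjusted p = 0.0868) in IRP against NP.

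Crat, carnitine acetyltransferase, which moves short acyl groups between coenzyme A and carnitine, was at 143, 111, 109.8 and 113 CPM in NV and 54.5, 68.7, 73.0 and 87.5 CPM in IRV, with no overlap. It was at 105, 123, 97.9 and 119 CPM in NP and 77.3, 104, 99.6 and 97.2 CPM in IRP, where IRP replicate 1 was the lowest and the others lay at or near the NP range. Its log2 fold change was -0.72 ± 0.14 (adjusted p = 0.00156) in IRV against NV and -0.24 ± 0.14 (adjusted p = 0.179) in IRP against NP. Cpt2, the carnitine palmitoyltransferase of the inner membrane, was at 76.1, 71.7, 90.9 and 79.5 CPM in NV and 55.5, 61.4, 56.8 and 68.9 CPM in IRV. It was at 77.8, 95.2, 67.4 and 84.3 CPM in NP and 59.2, 89.0, 74.7 and 75.2 CPM in IRP. The IRV libraries of Cpt2 lay below the NV libraries, at a log2 fold change of -0.38 ± 0.14 (adjusted p = 0.0513) in IRV against NV and -0.13 ± 0.13 (adjusted p = 0.449) in IRP against NP, so that the first value missed the threshold narrowly. It passed in several other fits, among them edgeR with another scaling (RLE) and limma-voom.

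Cpt1a, the outer-membrane carnitine palmitoyltransferase that controls entry, gave values on both sides of 0. It was at 371, 343, 356 and 357 CPM in NV and 249, 314, 331 and 405 CPM in IRV. It was at 363, 364, 340.4 and 364 CPM in NP and 320.0, 453, 365 and 396 CPM in IRP. The uninjured libraries were tightly grouped and the injured ones spread to both sides of them. The log2 fold change was -0.13 ± 0.14 (adjusted p = 0.493) in IRV against NV and 0.10 ± 0.13 (adjusted p = 0.585) in IRP against NP, and -0.29 ± 0.21 in the latter with the library set as covariate. Slc25a20, the carnitine-acylcarnitine translocase, differed by -0.23 ± 0.15 and -0.10 ± 0.14, with overlapping ranges in both comparisons.

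Acyl-CoA dehydrogenases carry out the opening step of each turn, and 3 of 4 fell in each comparison: Acadm, Acads and Acadvl (under library totals Acadvl turned to 0.02 in IRV against NV, and Acadvl and Acads to 0.15 and 0.03 in IRP against NP). Acads, the short-chain enzyme, was at 82.9, 92.8, 72.0 and 102 CPM in NV and 39.1, 50.4, 50.8 and 46.0 CPM in IRV, without overlap. It was at 72.1, 95.2, 90.3 and 83.6 CPM in NP and 47.7, 73.9, 58.4 and 56.5 CPM in IRP, where IRP replicate 2 overlapped the lowest NP library. Its log2 fold change was -0.89 ± 0.15 (adjusted p = 0.000396) in IRV against NV and -0.53 ± 0.14 (adjusted p = 0.0066) in IRP against NP. Acadm, the medium-chain enzyme, was at 657, 760.3, 636 and 749 CPM in NV and 191, 440.0, 265 and 352 CPM in IRV. It was at 559, 739, 690.5 and 581 CPM in NP and 228, 606, 350.1 and 338 CPM in IRP. IRP replicate 2 lay among the NP libraries and the other 3 IRP libraries lay below them all. The log2 fold change of Acadm, the lowest of the 35 in IRV against NV, was -1.16 ± 0.26 (adjusted p = 0.00321) in IRV against NV and -0.76 ± 0.26 (adjusted p = 0.024) in IRP against NP. Its call in IRP against NP was lost on leaving out any 1 of 5 libraries (IRP replicates 1, 3 and 4 and NP replicates 2 and 3), at -0.63 to -0.78.

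Acadvl, which acts on very long chains, was at 174, 158, 150.4 and 151 CPM in NV and 99.7, 137, 101 and 115 CPM in IRV. It was at 158, 162, 186 and 146 CPM in NP and 96.3, 142, 124 and 126 CPM in IRP, with no overlap in either comparison. The log2 fold change was -0.48 ± 0.13 (adjusted p = 0.0128) in IRV against NV and -0.42 ± 0.13 (adjusted p = 0.0163) in IRP against NP, and the latter call was lost without NP replicate 3, at -0.35. Acadl, the long-chain enzyme, was the dehydrogenase that passed in neither comparison, at -0.30 ± 0.14 and -0.20 ± 0.13. Within libraries the ratio of Acadm to Acadl counts, which no scaling of libraries changes, was 1.38 to 1.71 on the log2 scale in NV, 1.36 to 1.43 in NP, 0.39 to 1.10 in IRV and 0.30 to 1.32 in IRP. No injured library reached the lowest uninjured one. This pair was picked after its values were seen, so the ratio is a description with no test.

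Later steps of the mitochondrial spiral held 8 genes, of which 5 fell in each comparison: Echs1, Hadh, Hadhb, Acaa2 and Echdc2 (under library totals Echdc2 turned to 0.01 in IRV against NV, and Hadhb, Acaa2 and Echdc2 to 0.05, 0.06 and 0.03 in IRP against NP). Echs1, the short-chain enoyl-CoA hydratase whose promoter is printed above, was at 110.3, 127, 138 and 103 CPM in NV and 79.1, 80.2, 54.5 and 67.0 CPM in IRV. It was at 105, 150.3, 151 and 114 CPM in NP and 56.7, 77.9, 55.7 and 58.4 CPM in IRP. Groups did not overlap in either comparison, and IRP replicate 2 stood above the other IRP libraries. Its log2 fold change was -0.79 ± 0.16 (adjusted p = 0.002) in IRV against NV and -1.07 ± 0.16 (adjusted p = 0.00014) in IRP against NP, the lowest of the 35 in the latter. With the library set as covariate Echs1 was at -0.58 ± 0.19 (adjusted p = 0.0505) in IRV against NV and at -0.68 ± 0.25 (adjusted p = 0.158) in IRP against NP.

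Hadh, which oxidises the hydroxyacyl intermediate, was at 323, 258, 299 and 276 CPM in NV and 115, 184, 149 and 170.3 CPM in IRV. It was at 291, 327, 282 and 289 CPM in NP and 149, 249.8, 179.9 and 191 CPM in IRP. No injured library reached an uninjured one, and the log2 fold change was -0.90 ± 0.16 (adjusted p = 0.0006) in IRV against NV and -0.63 ± 0.16 (adjusted p = 0.00374) in IRP against NP. Hadhb was at 119.7, 114, 115 and 101 CPM in NV and 81.2, 75.4, 71.1 and 74.8 CPM in IRV. It was at 117, 141, 109 and 123 CPM in NP and 70.4, 97.8, 76.7 and 97.2 CPM in IRP, again with no overlap, at a log2 fold change of -0.58 ± 0.12 (adjusted p = 0.00241) in IRV against NV and -0.52 ± 0.12 (adjusted p = 0.00233) in IRP against NP. Hadha, its partner in the trifunctional protein and its neighbour on chromosome 5, did not pass, at -0.26 ± 0.11 (adjusted p = 0.109) in IRV against NV and -0.04 ± 0.11 (adjusted p = 0.791) in IRP against NP. The log2 ratio of Hadhb to Hadha counts within libraries averaged -0.38 in NV, -0.24 in NP, -0.69 in IRV and -0.73 in IRP. The NV and IRV ranges of that ratio overlapped (-0.65 to -0.19 and -0.89 to -0.45), whereas the NP range of -0.28 to -0.19 lay above the IRP range of -0.90 to -0.58.

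The thiolase Acaa2 fell by 0.95 and 0.52 on the log2 scale, and the latter call was lost without NP replicate 1 or 2, at -0.50 and -0.45. Echdc2 was at -0.51 ± 0.15 and -0.53 ± 0.15, and its call in IRV against NV was lost without NV replicate 4, at -0.46. Decr1 and Eci1, the reductase and isomerase needed for unsaturated fatty acids, passed in neither comparison, at -0.32 ± 0.14 and -0.14 ± 0.22 in IRV against NV and -0.27 ± 0.14 and -0.22 ± 0.20 in IRP against NP.

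In electron transfer from the dehydrogenases every gene, 3 of 3, fell in both comparisons, though Etfdh turned to 0.23 in IRP against NP under library totals. Etfa, the alpha subunit of electron transfer flavoprotein, whose promoter is printed above, was at 192, 185, 208 and 211 CPM in NV and 94.6, 130.1, 99.5 and 127 CPM in IRV. It was at 174, 204, 177 and 204 CPM in NP and 97.9, 159, 128 and 117 CPM in IRP. All injured libraries lay below all uninjured ones of the same treatment, and the log2 fold change was -0.81 ± 0.14 (adjusted p = 0.000663) in IRV against NV and -0.60 ± 0.14 (adjusted p = 0.00282) in IRP against NP. Etfb, the beta subunit, was at 184, 154, 187 and 174 CPM in NV and 65.8, 105, 85.1 and 103 CPM in IRV. It was at 145, 189.7, 154 and 155 CPM in NP and 78.7, 132, 108 and 106 CPM in IRP. Etfb likewise showed no overlap, at -0.95 ± 0.16 (adjusted p = 0.000467) in IRV against NV and -0.61 ± 0.16 (adjusted p = 0.00542) in IRP against NP.

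Etfdh, the oxidoreductase that passes those electrons to ubiquinone, was at 142, 128, 134 and 114 CPM in NV and 62.7, 93.0, 85.5 and 97.6 CPM in IRV. It was at 127, 134, 127 and 129 CPM in NP and 90.0, 110.2, 101 and 105 CPM in IRP. The groups did not overlap in either comparison. Its log2 fold change was -0.59 ± 0.12 (adjusted p = 0.00199) in IRV against NV and -0.35 ± 0.12 (adjusted p = 0.0256) in IRP against NP, and the latter call was lost without NP replicate 2, at -0.33. The log2 ratio of Etfb to Etfa counts averaged -0.19 in NV, -0.24 in NP, -0.34 in IRV and -0.24 in IRP, with overlapping ranges.

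**Figure D3:**
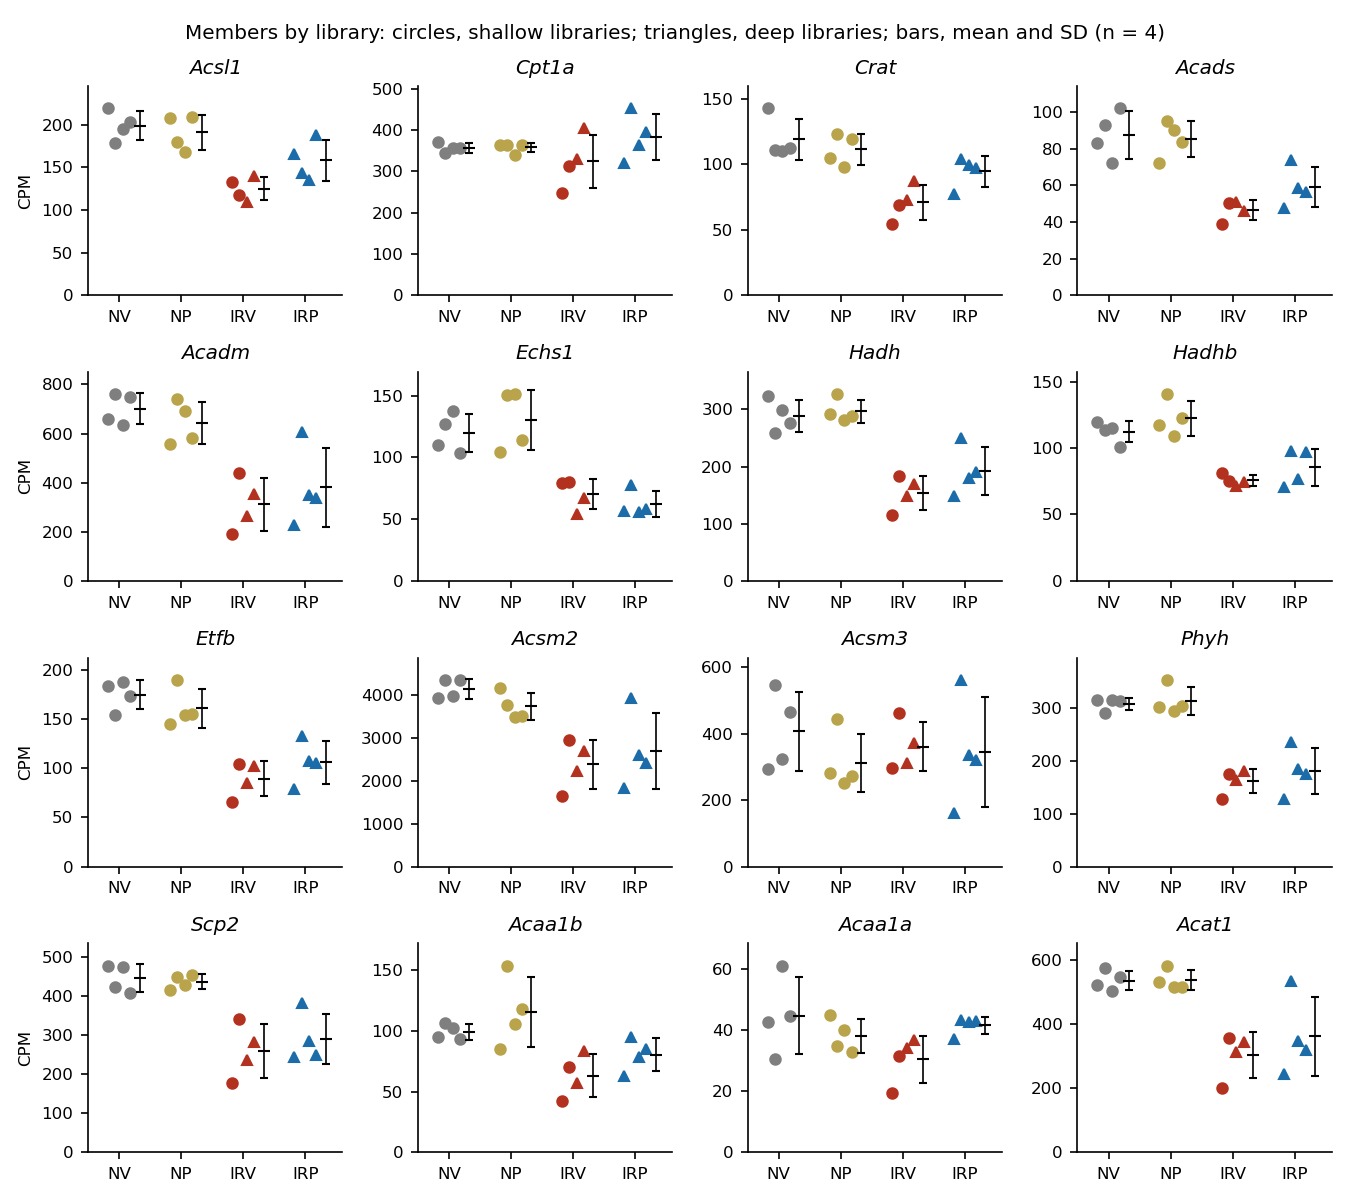
CPM of 16 members in each of the 16 libraries (vertical axes from 0, under TMM scaling), with circles for shallow and triangles for deep libraries and bars for the mean and SD of 4 libraries. IRV libraries lie below NV libraries for Echs1, Etfb, Phyh and Acat1, among others, whereas Cpt1a, Acsm3 and Acaa1a overlap, and IRV replicate 1 and IRP replicate 1 are the lowest of their groups for most members.

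The medium-chain synthetases did not move as a block. Acsm1 was at 115, 108, 124 and 120.5 CPM in NV and 37.01, 80.2, 49.1 and 66.4 CPM in IRV. It was at 120.1, 157, 107 and 105 CPM in NP and 49.5, 107, 67.0 and 53.2 CPM in IRP. IRP replicate 2 lay within the NP range and the other injured libraries of both arms lay below their controls. The log2 fold change of Acsm1 was -0.99 ± 0.24 (adjusted p = 0.00602) in IRV against NV and -0.83 ± 0.23 (adjusted p = 0.0087) in IRP against NP. Acsm2, its neighbour on chromosome 7, was at 3913, 4339, 3964 and 4342 CPM in NV and 1654, 2948, 2221 and 2696 CPM in IRV. It was at 4163, 3762, 3484 and 3492 CPM in NP and 1825, 3928, 2596 and 2422 CPM in IRP, where IRP replicate 2 again lay within the NP range. Its log2 fold change was -0.80 ± 0.21 (adjusted p = 0.00992) in IRV against NV and -0.47 ± 0.21 (adjusted p = 0.0823) in IRP against NP, so the fall passed in IRV against NV alone, and the interaction did not pass (0.33 ± 0.30, adjusted p = 0.788).

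Acsm3 overlapped between all groups. It was at 293, 546, 324 and 466 CPM in NV and 298, 463, 312 and 373 CPM in IRV. It was at 282, 443, 251 and 272 CPM in NP and 162, 562, 336 and 321 CPM in IRP. The IRP libraries thus spanned more than the other 3 groups together, and the log2 fold change was -0.17 ± 0.30 (adjusted p = 0.699) in IRV against NV and 0.14 ± 0.30 (adjusted p = 0.726) in IRP against NP. Without IRP replicate 2, the highest library, the latter value became -0.19. Salmon divides reads among similar transcripts, so levels of the related Acsm genes, and of Acaa1a and Acaa1b below, carry that uncertainty.

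Of the 11 peroxisomal members, 4 fell in IRV against NV (Phyh, Scp2, Acaa1b and Abcd3) and 5 in IRP against NP (Phyh, Scp2, Acaa1b, Eci2 and Pex11a). Over all genes 11.1% and 24% passed as lower. Under library totals Abcd3 turned to 0.02 in the first comparison and Acaa1b, Eci2 and Pex11a to 0.03, 0.17 and 0.14 in the second. Medians of the 11 were -0.48 and -0.40, against -0.59 and -0.38 for the 20 mitochondrial members, and the sets were not tested against each other. Phyh, phytanoyl-CoA hydroxylase, which opens the alpha-oxidation of branched fatty acids, was at 315, 291, 315 and 313 CPM in NV and 128, 176, 164 and 180.4 CPM in IRV. It was at 303, 353, 295 and 304 CPM in NP and 129, 236, 185 and 175 CPM in IRP. Groups did not overlap in either comparison and the log2 fold change was -0.92 ± 0.15 (adjusted p = 0.000401) in IRV against NV and -0.79 ± 0.15 (adjusted p = 0.000671) in IRP against NP. Phyh was the 1 member that passed in IRP against NP with the library set as covariate, at -0.96 ± 0.26 (adjusted p = 0.0471).

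Scp2, which carries sterols and holds the thiolase for branched chains, was at 479, 424, 476 and 408 CPM in NV and 178, 342, 237 and 282 CPM in IRV. It was at 415, 450.0, 429.5 and 455 CPM in NP and 244, 382, 285 and 248 CPM in IRP. No injured library reached its controls, at a log2 fold change of -0.78 ± 0.17 (adjusted p = 0.00333) in IRV against NV and -0.59 ± 0.17 (adjusted p = 0.0102) in IRP against NP. Acaa1b, a peroxisomal thiolase, was at 94.9, 107, 103 and 93.4 CPM in NV and 42.1, 70.5, 57.1 and 83.4 CPM in IRV. It was at 85.5, 154, 105 and 118 CPM in NP and 63.0, 95.5, 78.7 and 85.3 CPM in IRP. Its log2 fold change was -0.62 ± 0.20 (adjusted p = 0.0261) in IRV against NV and -0.53 ± 0.19 (adjusted p = 0.0304) in IRP against NP, and either call depended on single libraries: the first was lost without IRV replicate 3 or NV replicate 2 or 3, at -0.58 to -0.61, and the second without IRP replicate 1 or NP replicate 2 or 4, at -0.36 to -0.52.

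Acaa1a, the paralogous thiolase, was at 42.7, 30.6, 61.2 and 44.8 CPM in NV and 19.5, 31.6, 34.4 and 36.8 CPM in IRV. It was at 45.2, 34.96, 40.2 and 32.8 CPM in NP and 37.3, 43.3, 42.9 and 43.1 CPM in IRP. Injured and uninjured libraries overlapped in both arms, with a log2 fold change of -0.49 ± 0.19 (adjusted p = 0.0637) in IRV against NV and 0.13 ± 0.18 (adjusted p = 0.598) in IRP against NP. With the library set as covariate Acaa1a passed in IRV against NV at -0.76 ± 0.24 (adjusted p = 0.0407). It was at -0.29 ± 0.30 in IRP against NP, so its sign there turned with that covariate.

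Abcd3, a transporter of the peroxisomal membrane, was at -0.48 ± 0.14 (adjusted p = 0.0165) in IRV against NV and -0.35 ± 0.14 (adjusted p = 0.0507) in IRP against NP. Eci2, an isomerase, was at -0.29 ± 0.15 (adjusted p = 0.153) in IRV against NV and -0.41 ± 0.14 (adjusted p = 0.0298) in IRP against NP, and the latter became 0.04 with the library set as covariate. The Eci2 call was lost without NP replicate 1, 3 or 4, at -0.39 to -0.40. Pex11a, which takes part in peroxisome division, was at -0.08 ± 0.15 (adjusted p = 0.694) in IRV against NV and -0.44 ± 0.14 (adjusted p = 0.0141) in IRP against NP. NP libraries of Pex11a (33.6 to 42.4 CPM) lay above NV libraries (23.9 to 32.4 CPM), but NP against NV did not pass for this gene (adjusted p = 0.9999). The part of those levels in the 2 injury comparisons was not tested. Ehhadh and Hsd17b4, the peroxisomal bifunctional enzymes, the octanoyltransferase Crot and the racemase Amacr passed in neither comparison, at -0.33 to -0.64 in IRV against NV and -0.21 to -0.40 in IRP against NP. The log2 ratio of Phyh to Ehhadh counts, a pair picked after its values were seen, averaged -0.27 in NV, -0.31 in NP, -0.75 in IRV and -0.74 in IRP. Its NV range of -0.32 to -0.24 lay above the IRV range of -0.91 to -0.56, while NP and IRP touched at -0.54.

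Acat1, the mitochondrial acetoacetyl-CoA thiolase that serves both ketone formation and ketone use, fell in both arms. It was at 521, 573, 502 and 545 CPM in NV and 200.4, 356, 314 and 344 CPM in IRV. It was at 530.4, 582, 515 and 516 CPM in NP and 246, 535, 348 and 319 CPM in IRP. IRP replicate 2 lay among the NP libraries and the other 3 below them, and the log2 fold change was -0.81 ± 0.20 (adjusted p = 0.00647) in IRV against NV and -0.57 ± 0.20 (adjusted p = 0.0289) in IRP against NP. The latter call was lost without IRP replicate 1 or 4 or NP replicate 2, at -0.48 to -0.58.

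The injured libraries differed among themselves. Set against the NV mean, the median log2 ratio over the 35 members was -0.84, -0.48, -0.65 and -0.41 in IRV replicates 1 to 4 and -0.68, -0.13, -0.37 and -0.31 in IRP replicates 1 to 4. In NP it was -0.03, 0.18, -0.07 and 0.02. IRV replicate 1 was the lowest of its group for 30 of 35 members, IRP replicate 1 the lowest for 31 and IRP replicate 2 the highest for 31. Proximal tubule markers lay at -1.43, -0.78, -1.002 and -0.68 in IRV and at -1.18, -0.27, -0.86 and -0.86 in IRP, so the same libraries stood at the ends. When totals over all 40472 genes alone were used for scaling, IRV replicate 1 was still the lowest for 30 members. IRP replicate 1 was then the lowest for 19, and IRP replicate 2 was the highest for 16 and the lowest for 8. Leaving out IRV replicate 1 and IRP replicate 1 together gave 22 falls in IRV against NV and 15 in IRP against NP.

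**Figure D4:**
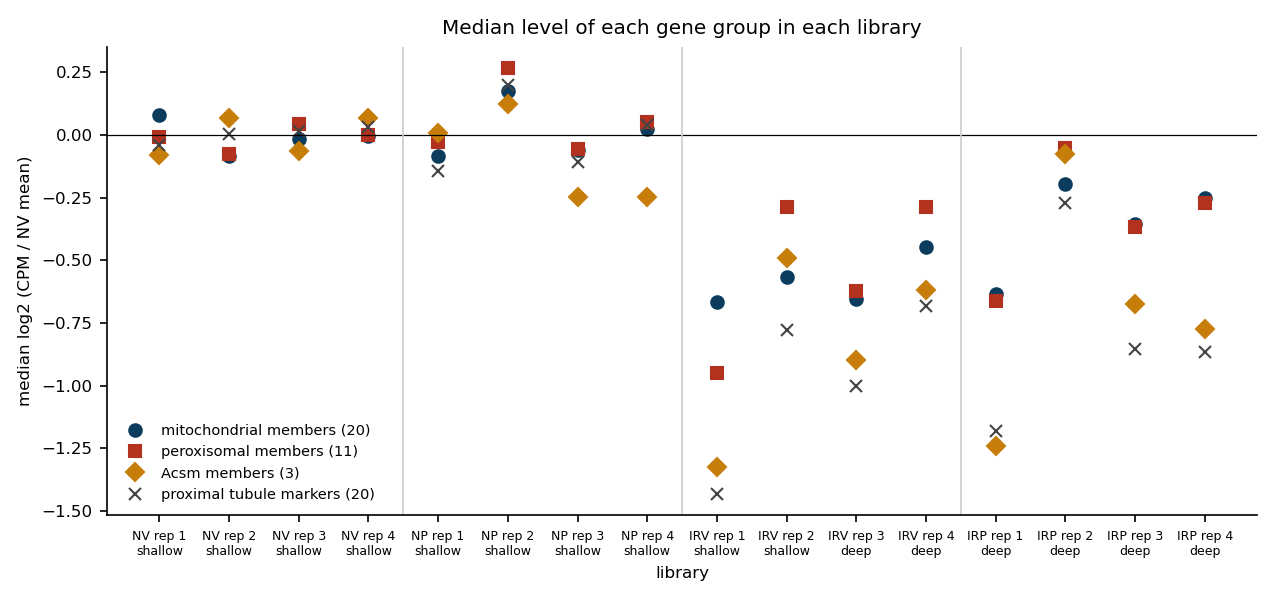
Median log2 ratio of CPM to the NV mean for the 20 mitochondrial, 11 peroxisomal and 3 Acsm members and the 20 proximal tubule markers in each library (TMM scaling). IRV replicate 1 and IRP replicate 1 are the lowest libraries of their own groups and IRP replicate 2 is the injured library nearest to 0 in each series, with proximal tubule markers at -1.43, -1.18 and -0.27 there.

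PJ34 itself gave no passing difference among the members. In IRP against IRV 0 of 35 passed by edgeR, DESeq2 or limma-voom, and 0% of all genes passed by edgeR. The values were positive for 31 members, with a median of 0.20 and a range of -0.15 to 0.46, against a median of 0.02 over all genes. This number of positive signs was not compared with that over all genes and was not tested, so no PJ34 effect is read from it. At an unadjusted p under 0.05 there were 6 of 35 members (Crat, Acsl1, Acaa2, Acads, Acaa1a and Cpt2) and 1832 of the 13614 genes tested. Crat differed by 0.39 ± 0.14 (95% interval 0.10 to 0.68, adjusted p = 0.148) and Acaa2 by 0.46 ± 0.17 (95% interval 0.09 to 0.82, adjusted p = 0.182). Without IRV replicate 4, Crat passed at 0.50 (adjusted p = 0.041). Within the deep libraries alone, 4 of IRP and 2 of IRV, 0 members passed and the median was 0.15. A missed threshold does not show that these genes were alike in IRP and IRV.

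In NP against NV 0 of 35 members passed by edgeR, DESeq2 or limma-voom, with 0% of all genes passing by edgeR, a members' median of 0.01 and a range of -0.38 to 0.39. Pex11a was the 1 member with an unadjusted p under 0.05 (0.39 ± 0.15), among 501 genes in all. The interaction, which asks whether the injury effect differed between PJ34 and vehicle, passed for 0 of 35 members by the same 3 tools and for 0% of all genes by edgeR. Its values were positive, meaning a less negative injury effect under PJ34, for 29 members, with a median of 0.18. That count of signs was not set against all genes and was not tested, so no effect of PJ34 is read from it. Crat (0.48 ± 0.20), Acaa1a (0.62 ± 0.26) and Acsl1 (0.40 ± 0.18) had an unadjusted p under 0.05, among 1550 of the 13614 genes tested, at adjusted p-values of 0.37, 0.378 and 0.407. The interaction and IRP against IRV use the same IRP and IRV libraries, and all IRP libraries are deep.

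Beyond the 35 members, 141 of 154 listed genes of the surrounding pathways were tested, and the directions that follow are under TMM scaling unless library totals are named. Counts of each list stand against 11.1% of all genes lower in IRV against NV and 24% in IRP against NP. In either direction 27% and 43.6% of all genes passed. Of the genes named below, library totals turned Ppargc1a and Me1 to 0.15 and 0.06 in IRV against NV. In IRP against NP they turned Ppargc1a, Me1, Esrra, Pex3, Pex13, Acot13 and Ppara to 0.16, 0.15, 0.02, 0.05, 0.51, 0.24 and 0.32. Of 22 other genes of mitochondrial fatty and branched-chain acid oxidation, 14 fell and 0 rose in IRV against NV, and 10 fell and 1 rose in IRP against NP. Under library totals 3 were lower and 0 higher, then 1 lower and 2 higher, and 20 of 22 lay below the median of all genes in each comparison. Acad9, an acyl-CoA dehydrogenase and assembly factor of respiratory complex I, was at -0.94 ± 0.18 in IRV against NV and -0.99 ± 0.18 in IRP against NP. Hibch and Pcca, of valine and propionate breakdown, fell in both comparisons, at -0.89 ± 0.18 and -0.71 ± 0.15 in IRV against NV. Acot13, a thioesterase, fell in IRV against NV (-1.09 ± 0.15) and was at -0.33 ± 0.15 (adjusted p = 0.0835) in IRP against NP.

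Of 29 other peroxisomal enzymes and transporters, 14 fell in each comparison, with 0 and 1 rising. Under library totals 2 were lower and 1 higher, then 1 lower and 4 higher, and 28 and 27 of 29 lay below the median of all genes. Cat, the catalase that removes hydrogen peroxide, was at -1.01 ± 0.18 in IRV against NV and -0.72 ± 0.18 in IRP against NP. Slc27a2, a very-long-chain acyl-CoA synthetase that is also in the proximal tubule marker list, was at -0.78 ± 0.24 in IRV against NV and -0.61 ± 0.24 in IRP against NP. Pecr, Nudt12 and Dao fell in both comparisons, at -1.04, -0.62 and -0.57 in IRV against NV. Of 15 peroxins, which build the organelle, 2 fell in each comparison (Pex7 and Pex13, then Pex7 and Pex3), and Pex26 rose in IRP against NP (0.72 ± 0.23). Falls were thus near the 11.1% of all genes in IRV against NV and below the 24% in IRP against NP. Under library totals no peroxin was lower, 1 was higher and then 6, with 10 and 13 of 15 below the median of all genes.

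Of 7 other ketone enzymes and carriers 4 fell in each comparison, among them Oxct1, Aacs and Bdh2. Oxct1, the transferase needed to use ketones, was at -1.15 ± 0.23 in IRV against NV and -0.78 ± 0.23 in IRP against NP. Under library totals the list had 1 lower and 1 higher, then 0 lower and 1 higher, with 6 of 7 below the median of all genes in each.

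Among 16 regulators linked to PPAR signalling 5 fell and 1 rose in each comparison. Library totals turned that balance, to 0 lower and 4 higher in IRV against NV and 0 lower and 6 higher in IRP against NP, with 10 and 11 of 16 below the median of all genes. Ppara did not pass, at -0.55 ± 0.23 in IRV against NV and -0.24 ± 0.22 in IRP against NP. Ppargc1a fell, at -0.36 ± 0.13 (adjusted p = 0.0496) and -0.41 ± 0.13 (adjusted p = 0.0152). Hnf4a, a nuclear receptor that is also in the proximal tubule marker list, was at -0.89 ± 0.16 in IRV against NV and -0.67 ± 0.16 in IRP against NP, and Esrra, the estrogen-related receptor alpha, at -0.79 ± 0.16 in IRV against NV and -0.56 ± 0.15 in IRP against NP. Nrip1, a corepressor of nuclear receptors, rose, at 0.51 ± 0.16 in IRV against NV and 0.54 ± 0.15 in IRP against NP.

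Other PPARA targets went both ways: of 18 tested, 5 fell and 4 rose in IRV against NV, and 6 fell and 5 rose in IRP against NP. Under library totals 2 were lower and 6 higher, then 2 lower and 8 higher, with 11 and 10 of 18 below the median of all genes. Cyp4a10, a fatty acid omega-hydroxylase, fell, at -1.36 ± 0.24 in IRV against NV and -1.11 ± 0.24 in IRP against NP. Angptl4, an inhibitor of lipoprotein lipase, rose, at 1.42 ± 0.27 in IRV against NV and 2.06 ± 0.27 in IRP against NP, as did Ucp2, a mitochondrial carrier, at 1.01 ± 0.21 in IRV against NV and 1.62 ± 0.21 in IRP against NP, and Txnip, a thioredoxin-binding protein, at 1.88 ± 0.18 in IRV against NV and 2.24 ± 0.18 in IRP against NP.

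Uptake and storage genes were also mixed. Of 19, 4 fell and 5 rose in IRV against NV, and 3 fell and 6 rose in IRP against NP. Over all genes 11.1% and 24% passed as lower, and 27% and 43.6% in either direction. Under library totals 2 were lower and 8 higher, then 0 lower and 12 higher, with 11 and 8 of 19 below the median of all genes. The 8 adipocyte markers, of which Plin4 is also in this list, summed to 21.0 to 36.9 CPM in NV, 16.3 to 44.2 in NP, 76.5 to 107.6 in IRV and 44.9 to 236 in IRP, highest in IRP replicate 1. Of the 4 markers tested 3 rose in IRV against NV and 4 in IRP against NP, and their part in the uptake and storage values was not tested. Acsl3 fell (-1.01 ± 0.16 and -0.73 ± 0.16) while its relative Acsl5 rose (0.64 ± 0.13 and 0.66 ± 0.12). Of 15 synthesis genes 3 fell and 1 rose, then 4 fell and 2 rose, to be read against the same shares of all genes. Library totals instead gave 0 lower and 6 higher, then 0 lower and 8 higher. Of the 15, 8 and 10 then lay below the median of all genes. Srebf1 was at -0.55 ± 0.14 in IRV against NV and -0.63 ± 0.13 in IRP against NP (-0.03 and -0.05 under library totals) and the desaturase Scd1 at 0.93 ± 0.30 in IRV against NV and 1.35 ± 0.30 in IRP against NP.

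With the library set as covariate, 21 of the 33 selected pathway genes that passed in IRV against NV still passed, and 4 of 33 in IRP against NP. Cat, Oxct1, Hnf4a, Esrra, Cyp4a10, Angptl4, Ucp2 and Txnip were among the 21, and the 12 that no longer passed were Aacs, Bdh2, Dao, Me1, Nrip1, Pex7, Pex13, Ppargc1a, Scd1, Sirt3, Slc27a1 and Srebf1. The 4 in IRP against NP were Hnf4a, Ucp2, Angptl4 and Txnip.

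**Figure D5:**
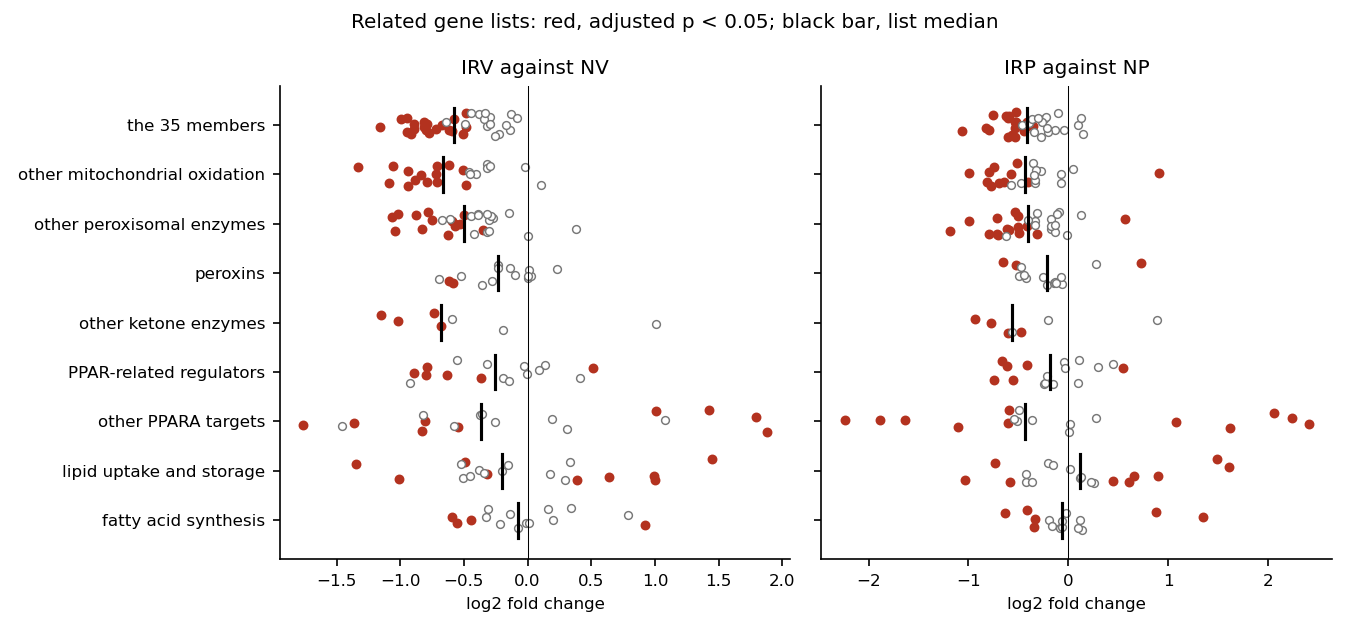
Log2 fold change of the 35 members and of 8 lists of related genes in IRV against NV and IRP against NP (TMM scaling), each point 1 gene, red where the adjusted p was under 0.05 and with a black bar at the list's median. Members and the lists of other mitochondrial and peroxisomal enzymes lie mostly below 0, where 14 of 22 and 14 of 29 fell in IRV against NV, and other PPARA targets lie on both sides.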

How the data were processed

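The authors deposited a table of expected counts per gene, already in whole numbers, for 40472 genes in 16 libraries of poly(A) RNA made with a directional kit, per the labels' protocols. Salmon 1.3.0, FastQC 0.11.3, DESeq2 1.30.1, Trim Galore 0.6.6 and the build GRCm39 are named in the submitters' processing notes. The sources used here do not say whether molecular identifiers were counted. Symbols were matched by Ensembl ID for 40276 IDs.

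Genes were kept with filterByExpr at a minimum count of 10, and counts were tested with edgeR's quasi-likelihood test (edgeR 4.0.16, R 4.3.3) after TMM scaling, with all 16 libraries in 1 fit, the group as the only term and Benjamini-Hochberg adjustment over 13614 genes at 0.05. Log2 fold changes are given ± the standard error implied by the test, and CPM values use TMM-scaled totals of the kept genes. Alternatives were DESeq2 1.42.0, limma-voom (limma 3.58.1), other scalings, no filter, the library set, a replicate block and leaving out libraries. The script was tested on simulated counts. Libraries of the same group always differed by more than sampling noise, at a lowest chi-square per degree of freedom of 1.81 over 24 pairs. In IRV, pairs of a shallow and a deep library were at 61.4 to 103, and the shallow pair and the deep pair at 7.96 and 8.91. The highest IRP pair, replicates 1 and 2, was at 52.95.

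Members and lists were chosen with earlier results of these data known. The rule for named genes gave, per role, every library's value for the 3 members with the smallest p for the mean of both injury effects and for members against their role's direction, and, per pathway list, up to 4 genes by the same p plus some fixed by name, among them Ppara, Ppargc1a, Cat and Slc27a2. Promoters came from RefSeq (GRCm38.p6), an older build than that of the counts, and none of their coordinates was set against the count data. Some listed genes are not reported here.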

Additional observations from a re-analysis of the deposited data

Results flagged for a closer look

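In 10 of 140 member groups of 4 libraries, 1 library stood apart from the other 3 by more than the 95% critical value of Dixon's ratio of gap to range, where chance alone gives about 1 in 20. In the NP group, replicate 3 stood low for Cpt1a (340.4 CPM, ratio 0.948), and replicate 2 stood high for Acsm3 (443 CPM, ratio 0.842) and Phyh (353 CPM, ratio 0.845) and low for Eci2 (73.6 CPM, ratio 0.866). In the NV group, replicate 1 stood high for Slc25a20 (37.6 CPM, ratio 0.841) and Crat (143 CPM, ratio 0.912), and replicate 2 stood low for Phyh (291 CPM, ratio 0.902). In the IRP group, replicate 2 stood high for Echs1 (77.9 CPM, ratio 0.875) and Eci1 (31.0 CPM, ratio 0.853), and replicate 1 stood low for Acaa1a (37.3 CPM, ratio 0.929). No member differed in its injury effect between vehicle and PJ34 by the interaction test.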

How the results depend on the processing

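Counts of members called stayed within 1.5 times under RLE size factors, DESeq2, limma-voom and a fit of only the groups compared (22 to 23 in IRV against NV, 19 to 21 in IRP against NP), and within the shallow libraries (20 in IRV against NV). Leaving out 1 library gave 19 to 26 in IRV against NV, 13 to 22 in IRP against NP and 0 to 1 in IRP against IRV. The replicate numbers did not pair the libraries: 5 of 24 same-numbered pairs had a correlation of deviations above 0.1 (range -0.23 to 0.26), and 4 of 16 libraries correlated best with their own number. With the replicate block 23 members passed in each injury comparison and 0 in the others. The library set as covariate changed the calls of IRP against NP more than those of IRV against NV. In IRP against NP 1 member passed with it, and Cpt1a turned to -0.29, Acaa1a to -0.29 and Eci2 to 0.043. The cause of each change below was not tested.

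Scaling by library totals left 2 members called in IRV against NV and 7 in IRP against NP, and no filter left 6 and 3. The median of all genes moved in both settings, so these counts do not compare directly with the main fit. Library totals turned the sign in IRV against NV for Cpt1a (0.39), Slc25a20 (0.29), Cpt2 (0.13), Acadvl (0.016), Acadl (0.21), Hadha (0.26), Eci1 (0.38), Decr1 (0.19), Echdc2 (0.013), Acsm3 (0.33), Abcd3 (0.024), Ehhadh (0.052), Hsd17b4 (0.17), Acaa1a (0.034), Crot (0.17), Eci2 (0.21) and Pex11a (0.43). In IRP against NP they did so for Acsl1 (0.32), Slc25a20 (0.48), Cpt2 (0.43), Crat (0.33), Acadvl (0.15), Acadl (0.37), Acads (0.032), Hadha (0.54), Hadhb (0.050), Acaa2 (0.057), Eci1 (0.35), Decr1 (0.30), Echdc2 (0.031), Etfdh (0.23), Acsm2 (0.081), Abcd3 (0.22), Ehhadh (0.16), Hsd17b4 (0.37), Acaa1b (0.033), Crot (0.18), Eci2 (0.17), Amacr (0.25) and Pex11a (0.14). Without a filter the sign turned in IRV against NV for Cpt1a (0.19), Slc25a20 (0.094), Acadl (0.013), Hadha (0.054), Eci1 (0.18), Acsm3 (0.13), Eci2 (0.0020) and Pex11a (0.23), and in IRP against NP for Acsl1 (0.16), Slc25a20 (0.34), Cpt2 (0.30), Crat (0.20), Acadvl (0.021), Acadl (0.24), Hadha (0.39), Eci1 (0.21), Decr1 (0.17), Etfdh (0.086), Abcd3 (0.089), Ehhadh (0.039), Hsd17b4 (0.23), Crot (0.072), Eci2 (0.025) and Amacr (0.14). Leaving out 1 library, values that changed sign ran from -0.36 to 0.051 for Eci1 and -0.38 to 0.0024 for Acsm3 in IRV against NV, and from -0.22 to 0.00077 for Slc25a20, -0.13 to 0.032 for Hadha and -0.19 to 0.36 for Acsm3 in IRP against NP. Without IRV replicate 1 and IRP replicate 1, a setting chosen after seeing the data, Hadha in IRP against NP was at 0.00048.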
